A study of Mus musculus with 248 samples.

Results

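Immature myeloid cells such as promyelocytes transcribe the 6 genes described here, Mpo, Elane, Prtn3, Ctsg, Ms4a3 and Fcnb. They were found by matching the Ensembl identifiers of the tables to these symbols. All 6 were among the 18508 genes of the training table, and 4 (Mpo, Prtn3, Ctsg and Fcnb) were among the 13607 genes of the validation table, so Elane and Ms4a3 were followed in the training cohort only. Blood was drawn repeatedly from mice of a leukemia model and its controls, and the RNA was sequenced in bulk. CM mice carried a conditional knock-in of the Cbfb-MYH11 fusion (Cbfb+/56M) together with Mx1-Cre on a C57BL/6 background (genotype code CHW), and Ctrl mice were littermates with the codes CW, HW or WT. Mice of both arms received poly(I:C) at 14 mg/kg every other day, 7 doses in all, starting at 4 to 8 weeks of age. Mx1-Cre responds to interferon and is not limited to blood cells, and poly(I:C) is itself an immune stimulus that both arms share. T0 to T10 are months of follow-up, and L is the draw at leukemia, which the labels define by more than 20% cKit-positive blasts. T0 is taken here as the draw before induction, so comparisons of later draws with T0 also span the poly(I:C) treatment.

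The training cohort held 55 libraries of 7 CM mice and 77 of 7 Ctrl mice, and the validation cohort 68 libraries of 13 CM mice and 48 of 8 Ctrl mice. Each replicate in a group is a separate mouse. Values are reads per gene as CPM, a library-size scaled read count, on a log2 scale. The whole reads behind them could be recovered, with 16 to 36.3 M reads in a training library and 8.68 to 34.4 M in a validation library. A gene without a read sat at -6.52 in the training table and -6.30 in the validation table. In the validation cohort each monthly draw and L was its own sequencing batch, per the labels, and the weekly draws shared another, the preparation was unstranded at T0, T1 and L and stranded at other times, and no Ctrl library was taken at L, so the step to L and its batch cannot be told apart. The source label reads PBMC while the protocols speak of peripheral blood. The mature neutrophil markers were present in these libraries, with a summed level of 2469 to 15334 CPM in the 7 training CM libraries at T0. CM mouse 2700 of the validation cohort had the knock-in transcript at a mean of -3.67 log2 CPM, against 3.30 to 4.62 in the other CM mice of that cohort. This transcript does not mark CM mice alone, since Ctrl mice 2705 and 2720, both of code HW, were at 3.09 and 3.17, and the protocols list the knock-in without Cre among the control genotypes. The T0 library of CM mouse 2731 disagreed with its sex label. Without these 2 mice, 2 of 4 validation members were called at month 1 and 0 of 4 at month 0 and at months 2 to 6, as with them, and further values without them stand beside the results.

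Promyelocytes fill their primary (azurophilic) granules with enzymes that are later released against microbes, and transcription of these genes is largely shut off as the cells mature, so that blood neutrophils carry the proteins but little of the messenger RNA. In healthy blood these transcripts therefore mark rare immature myeloid cells. Myeloid transcription factors of the ETS (PU.1), C/EBP and RUNX families act on several of them, and CBFB is the partner protein of the RUNX factors, which the fusion protein disturbs. Mpo codes for the peroxidase that makes hypochlorous acid, Elane for neutrophil elastase, Prtn3 for proteinase 3 and Ctsg for cathepsin G, the last 3 being serine proteases. Ms4a3 codes for a membrane protein of granulocyte-monocyte progenitors, and Fcnb for ficolin B, a soluble lectin that binds microbial sugars.

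The start regions of 5 of the genes, all but Elane, are shown because the transcripts were compared for moving together. The sequences are from RefSeq, run 5′ to 3′ in the direction of the gene from 250 bases before to 50 bases after the start on GRCm38.p6, and the tables matched all 6 genes. Capitals mark AGGAAGT, a motif of ETS factors, which was picked after the sequences had been seen.
Mpo, chr11:87793534-87793833, plus strand: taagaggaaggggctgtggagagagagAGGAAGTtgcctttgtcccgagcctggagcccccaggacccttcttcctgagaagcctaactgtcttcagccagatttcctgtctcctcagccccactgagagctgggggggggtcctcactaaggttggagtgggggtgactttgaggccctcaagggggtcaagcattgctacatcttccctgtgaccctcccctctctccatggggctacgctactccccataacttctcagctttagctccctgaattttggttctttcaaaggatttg
Prtn3, chr10:79879417-79879716, plus strand: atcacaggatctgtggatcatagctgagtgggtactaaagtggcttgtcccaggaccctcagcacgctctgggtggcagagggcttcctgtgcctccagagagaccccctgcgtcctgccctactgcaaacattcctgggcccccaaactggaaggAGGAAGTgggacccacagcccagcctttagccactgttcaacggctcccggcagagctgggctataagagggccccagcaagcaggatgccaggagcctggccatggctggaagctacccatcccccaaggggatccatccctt
Ctsg, chr14:56102525-56102824, minus strand: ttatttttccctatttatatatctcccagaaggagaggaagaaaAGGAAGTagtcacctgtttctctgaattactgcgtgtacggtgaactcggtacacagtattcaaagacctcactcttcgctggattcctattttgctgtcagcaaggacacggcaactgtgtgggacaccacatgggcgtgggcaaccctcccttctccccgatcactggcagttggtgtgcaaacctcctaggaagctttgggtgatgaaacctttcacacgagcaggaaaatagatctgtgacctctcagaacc
Ms4a3, chr19:11640802-11641101, minus strand: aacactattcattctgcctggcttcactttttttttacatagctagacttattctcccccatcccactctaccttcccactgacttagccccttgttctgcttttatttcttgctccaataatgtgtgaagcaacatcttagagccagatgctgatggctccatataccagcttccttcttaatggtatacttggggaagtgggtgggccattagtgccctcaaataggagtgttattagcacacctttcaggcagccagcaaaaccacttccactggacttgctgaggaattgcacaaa
Fcnb, chr2:28084829-28085128, minus strand: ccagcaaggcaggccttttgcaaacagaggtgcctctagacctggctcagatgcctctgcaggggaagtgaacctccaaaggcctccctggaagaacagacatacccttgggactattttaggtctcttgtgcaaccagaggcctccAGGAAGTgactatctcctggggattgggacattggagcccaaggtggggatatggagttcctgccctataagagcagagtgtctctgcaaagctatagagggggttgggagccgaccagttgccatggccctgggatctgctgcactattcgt
On both strands, AGGAAGT matched in 5 of the 6 windows, those of Mpo, Elane, Prtn3, Ctsg and Fcnb, and in 9.57% of 27025 windows of the same length in the RefSeq table. It began at -223 from the start in Mpo, at -206 in Ctsg, at -103 in Fcnb, at -94 in Prtn3 and at -84 in Elane, each time on the strand of the gene. The C/EBP-like motif TTGCNNAA matched in Ms4a3 and Fcnb, against 10.8% of all windows. Of the RUNX motifs, TGTGGT matched in Ctsg only (16.9% of all windows) and TGCGGT in 0 of the 6 (6.43% of all windows). TATAA matched in Elane, Prtn3, Ctsg and Fcnb, against 25.5% of all windows. These matches describe the letters of the windows and do not show that a factor binds there.

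The genes lie on 5 chromosomes. Mpo (ENSMUSG00000009350) spans chromosome 11 from 87793784 to 87804412, Ctsg (ENSMUSG00000040314) chromosome 14 from 56099885 to 56102574, Ms4a3 (ENSMUSG00000024681) chromosome 19 from 11629499 to 11640851 and Fcnb (ENSMUSG00000026835) chromosome 2 from 28076479 to 28084910. Prtn3 (ENSMUSG00000057729, chromosome 10, 79879667 to 79883174) and Elane (ENSMUSG00000020125, chromosome 10, 79886312 to 79888216) are neighbours on the plus strand, 3137 bases apart.

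At T0 the genes were close to the limit of detection in both arms. Mpo had 0 to 13 reads per library in the 7 training CM mice (median 4) and 0 to 6 in the 7 Ctrl mice. Prtn3 had 6 to 176 reads in CM mice (median 12) and 3 to 16 in Ctrl mice. Fcnb had 2 to 51 reads in CM mice and 1 to 8 in Ctrl mice. These ranges overlapped, and the 176 reads of Prtn3 and 51 of Fcnb came from 1 library, CM mouse 3334. Ctsg had 1 to 16 reads in CM mice and 1 to 5 in Ctrl mice, Elane 0 to 9 in CM and 0 to 1 in Ctrl mice, and Ms4a3 0 to 1 in both arms. Per length of the merged exons, the median level in CM mice at T0 was 0.248 RPKM (CPM per kilobase of exon) for Prtn3, 0.174 for Fcnb, 0.0959 for Ctsg and 0.0388 for Mpo. The medians in Ctrl mice followed the same order, 0.286 RPKM for Prtn3, 0.142 for Fcnb, 0.0897 for Ctsg and 0.0394 for Mpo, and those of Elane and Ms4a3 were 0 in both arms. The ranges of neighbours in this order overlapped. Over the whole training course Ms4a3 gave 202 reads in 55 CM libraries, with up to 47 in 1 library, and 22 reads in 77 Ctrl libraries, with up to 2. Elane gave 339 reads in CM libraries and 65 in Ctrl libraries, and Mpo 2456 in CM and 334 in Ctrl libraries.

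No member was called between the arms at T0, where a call is a Benjamini-Hochberg adjusted p under 0.05 over all genes of the table. In the training cohort 0 of 6 members passed in limma and 0 with voom, the alternative that weights by read count (1 at an unadjusted p under 0.05 with each), and 0.0054% of all genes were called higher. Of the 4 members in the validation cohort 0 passed with either (0 at an unadjusted p under 0.05), with 0.0% of all genes.

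**Figure D1:**
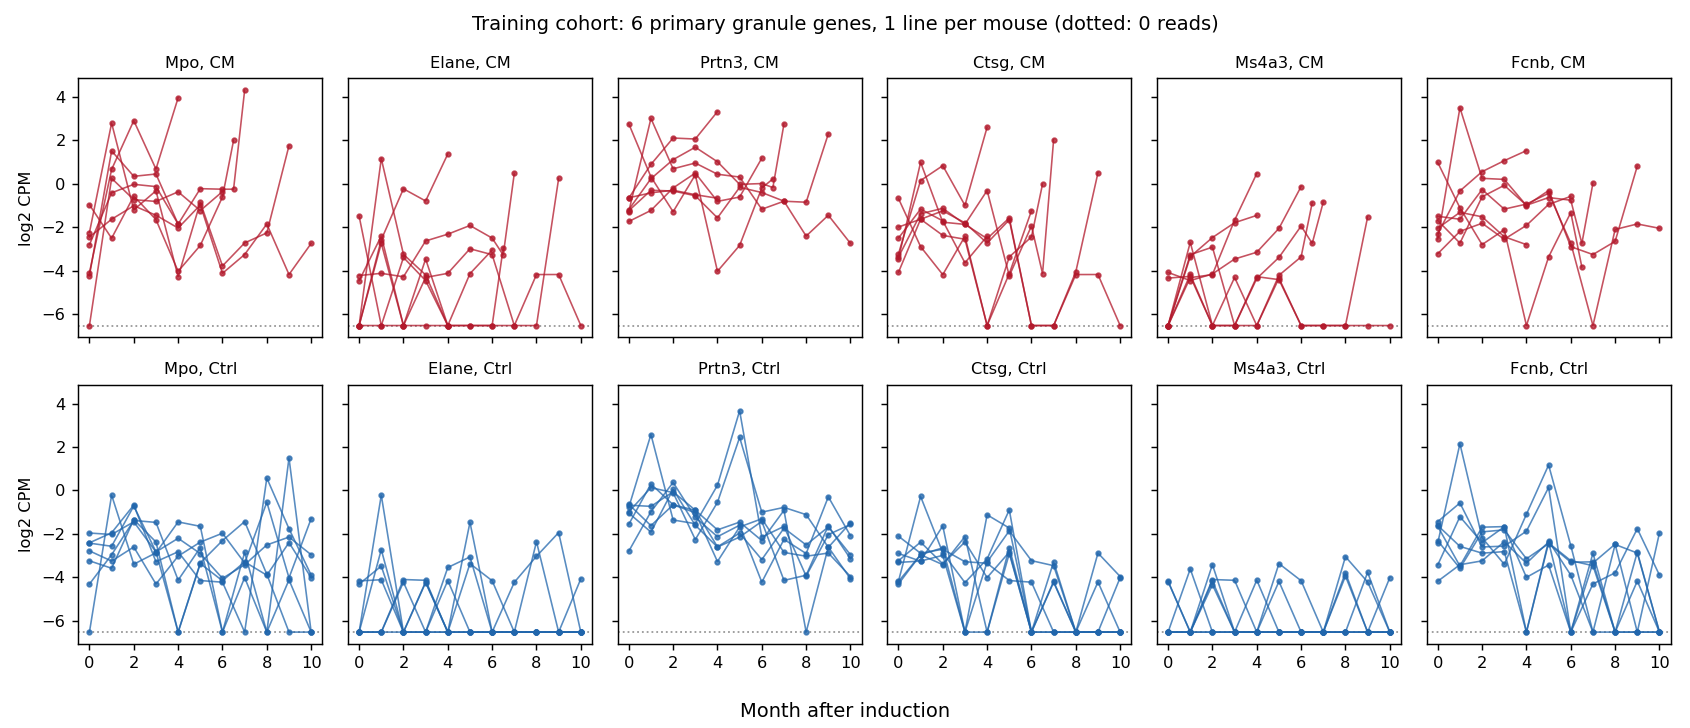
Level of the 6 genes (log2 CPM, y axis) by month (x axis) in the training cohort, with 1 line per mouse, CM mice in the upper panels and Ctrl mice in the lower. The CM lines scatter and most end high, while the Ctrl lines stay low except for single libraries of mice 3342, 3346 and 3350.

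At month 1, early after induction, Mpo had more reads in most CM mice without passing the test in the training cohort, and Ms4a3 was the member that was called. Mpo had 193, 61, 40, 34, 17, 7 and 4 reads in the 7 CM libraries, against 24, 6, 5, 4, 3, 2 and 2 in the 7 Ctrl libraries. In 4 of the 7 CM mice it lay above the highest Ctrl mouse, and the arms overlapped. The difference was 2.39 ± 0.77 on the log2 scale (estimate ± SE, limma adjusted p = 0.092), which did not pass. Ms4a3 had 1, 1, 1, 1, 2, 2 and 4 reads in the CM libraries, and among Ctrl mice 2 reads in mouse 3342 and 0 in the other 6. Every CM mouse thus had at least 1 read of it, while the Ctrl mice had none but for 3342, whose level lay above 4 of the 7 CM mice. It rose by 2.42 ± 0.55 on the log2 scale (limma adjusted p = 0.0196). With so few reads the size depends on the prior, and with 2 reads added in place of 0.25 it was 0.76 ± 0.23 and not called (adjusted p = 0.0689). The summed reads, 12 in CM against 2 in Ctrl mice, give a ratio of 6.02 with an exact 95% interval of 1.34 to 55.4 that covers counting error only. Ms4a3 made 1 called member of 6, and 3.68% of all genes were called higher at this month. The call was lost without Ctrl mouse 3349 (adjusted p = 0.0622), Ctrl mouse 3350 (0.0688) or CM mouse 3370 (0.0601). With each mouse set against its own T0 library the difference for Ms4a3 was 2.49 ± 0.96 (adjusted p = 0.337), and with voom its adjusted p was 0.0533. Mpo was called without CM mouse 3334 (3.02, adjusted p = 0.0234) or without Ctrl mouse 3342 (2.70, adjusted p = 0.0422).

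The serine protease genes and Fcnb did not pass at month 1 in the training cohort. The differences were 1.53 ± 0.62 for Ctsg (adjusted p = 0.169), 1.02 ± 0.67 for Prtn3 (0.36), 1.26 ± 1.26 for Elane (0.528) and 1.5 ± 0.95 for Fcnb (0.345), all from limma. CM mouse 3370 had the highest reads of the CM arm for Mpo, Prtn3 (224), Elane (62), Ctsg (55) and Fcnb (315), and Ctrl mouse 3342 the highest of the Ctrl arm, with 168 for Prtn3, 24 for Elane and 23 for Ctsg, and with Fcnb at 2.15 log2 CPM. Markers of mature neutrophils were high in the same libraries. Their summed level over 10 genes was 7677 CPM in CM mouse 3370, against 1995 to 3197 in the other 6 CM mice, and 19592 CPM in Ctrl mouse 3342, against 2202 to 10726 in the other 6 Ctrl mice. Their part in the result was not tested. In bulk RNA, more cells of a type and more RNA per cell cannot be told apart.

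Fcnb and Mpo were called at month 1 in the validation cohort, and neither gene overlapped between the arms. Fcnb had 7 to 95 reads in the 10 CM libraries (lowest log2 CPM -0.83, median -0.20, highest 2.45), against 0 to 9 in the 6 Ctrl libraries (lowest -6.30, median -3.70, highest -0.85). Mpo had 3 to 67 reads in CM libraries (lowest log2 CPM -2.28, median -1.64, highest 1.95), against 1 to 3 in Ctrl libraries (lowest -3.78, median -3.26, highest -2.28). All 10 CM mice lay above the highest Ctrl mouse for both genes, a pattern that 0.573% of all genes showed, and the nearest libraries of the 2 arms held few reads. CM mouse 2686 had 7 reads of Fcnb and Ctrl mouse 2705 had 9, and CM mouse 2685 and Ctrl mouse 2692 each had 3 reads of Mpo. Fcnb rose by 3.72 ± 0.65 (limma adjusted p = 0.00416) and Mpo by 2.51 ± 0.60 (adjusted p = 0.00989), which made 2 of 4 members, with 7.95% of all genes called higher. Without mice 2700 and 2731 the differences were 3.90 ± 0.72 for Fcnb (adjusted p = 0.00406) and 2.56 ± 0.62 for Mpo (0.0114). With each mouse set against its own T0 library, Fcnb differed by 2.97 ± 1.04 (adjusted p = 0.0689) and Mpo by 2.55 ± 1.08 (0.125), so both calls were lost. Prtn3 differed by 1.63 ± 0.68 (adjusted p = 0.0807), and passed without CM mouse 2684 (0.0413) or 2709 (0.0402) or Ctrl mouse 2705 (0.0242), and Ctsg differed by 1.29 ± 0.64 (0.14).

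**Figure D2:**
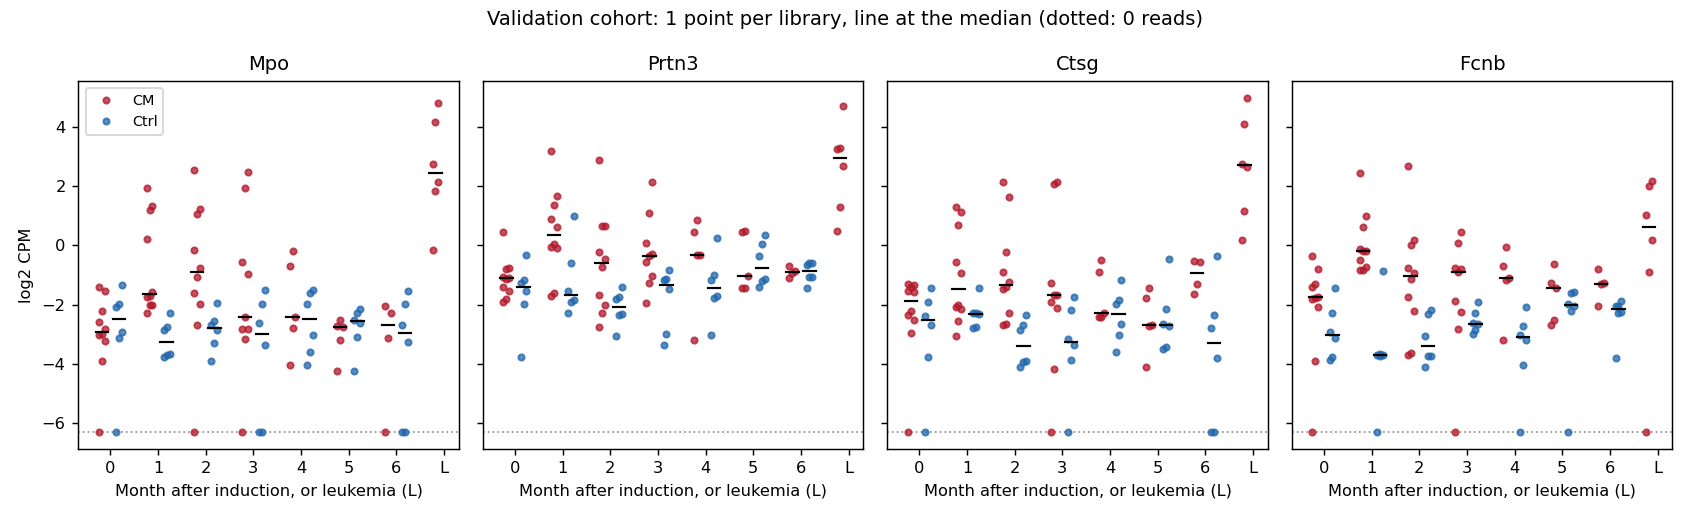
Level of Mpo, Prtn3, Ctsg and Fcnb (log2 CPM, y axis) in the validation cohort at months 0 to 6 and at L, with CM mice left of Ctrl mice, 1 point per library and a line at the median. At month 1 the CM points of Mpo and Fcnb lie above all Ctrl points, and at L the CM medians are 2.44 for Mpo, 2.95 for Prtn3, 2.71 for Ctsg and 0.61 for Fcnb.

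At month 2 no member passed in limma or with voom in either cohort. In the training cohort 2 of 6 had an unadjusted p under 0.05 with either tool, and 5.46% of all genes were called higher. In the validation cohort 3 of 4 had an unadjusted p under 0.05 in limma and 2 with voom, and 0.147% of all genes were called higher. Fcnb came nearest in the training cohort, with 3, 16 and 33 reads as the lowest, median and highest in CM mice and 2, 4 and 6 in Ctrl mice. Its level lay above the highest Ctrl mouse in 5 of 7 CM mice, and the difference was 1.5 ± 0.51 (adjusted p = 0.0707). Ctsg had 3 to 86 reads in the validation CM libraries (median 7) and 1 to 3 in the Ctrl libraries. It lay above the highest Ctrl mouse in 8 of 10 CM mice, with a difference of 2.40 ± 0.71 (adjusted p = 0.296), or 2.25 ± 0.70 (0.17) without mice 2700 and 2731.

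At month 3 Mpo was called in the training cohort, and Prtn3 was the member whose arms did not overlap. Mpo had 42, 36, 26, 18, 14, 9 and 7 reads in the CM libraries, against 8, 4, 3, 3, 3, 2 and 1 in the Ctrl libraries. In 6 of 7 CM mice it lay above the highest Ctrl mouse. It rose by 2.08 ± 0.41 (limma adjusted p = 0.0351), 1 of 6 members, with 0.313% of all genes called higher. Prtn3 had 110, 85, 44, 35, 30, 20 and 17 reads in the CM libraries, against 12, 12, 11, 9, 8, 7 and 5 in Ctrl mice. Every CM mouse lay above every Ctrl mouse, which held for 0.832% of all genes. Its difference of 1.83 ± 0.41 missed the threshold (adjusted p = 0.0575) and passed without CM mouse 3357 (0.0172), without the sex covariate (0.0232) or with median-ratio scaling (0.039). Also short of the threshold were those of Ctsg (2.35 ± 0.82, adjusted p = 0.197), Elane (1.60 ± 0.83, 0.377), Ms4a3 (1.47 ± 0.88, 0.456) and Fcnb (1.30 ± 0.61, 0.328). Against the own T0 library the difference for Mpo was 1.64 ± 0.94 (adjusted p = 0.859). Its call was also lost on leaving out Ctrl mouse 3335 (adjusted p = 0.0753), 3340 (0.0522), 3346 (0.0591), 3349 (0.161) or 3350 (0.0902), or CM mouse 3368 (0.0666) or 3370 (0.123). At this month the CM libraries carried the library groups G3 to G5 in their titles and the Ctrl libraries G1 to G3. Arm and library group are thus hard to tell apart here. In the validation cohort Mpo had 0 to 154 reads in the 9 CM libraries (median 4) and 0 to 8 in the 6 Ctrl libraries. The arms overlapped, and 0 of 4 members passed in limma or with voom (1 at an unadjusted p under 0.05 with each, 0.0% of all genes).

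At months 4 to 6 no member was called between the arms in either cohort by limma or voom. At month 6 in the training cohort, with 5 CM mice left, 4 of 6 members had an unadjusted p under 0.05 with either tool, and 0.0162% of all genes were called higher. Mpo had 28, 20, 15, 1 and 1 reads in CM mice and 0 to 4 in Ctrl mice. The CM mice thus lay partly above and partly within the Ctrl range, and Mpo differed by 2.31 ± 1.02 (adjusted p = 0.529). Months 4 and 5 of the training cohort had 0 and 2 members at an unadjusted p under 0.05 with either tool (0.0054% and 0.0% of all genes called higher). Months 4, 5 and 6 of the validation cohort had 1, 0 and 1 such members with either tool, and 0.0% of all genes were called higher in each. At training months 7 to 10 only 3, 2, 2 and 1 CM mice had a library, and the arms were not tested. Ctsg at month 8 was the member that lay above all 7 Ctrl mice in each CM mouse (2 of 2). The share of all genes with this pattern was not counted, so with 2 CM libraries it is a description only.

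Single libraries stood far above their group. Markers of mature neutrophils were looked at in a few training libraries picked by hand, and were high in some of these. CM mouse 3334 at T0 had a summed member level of 10.3 CPM, against 0.5 to 1.2 in the other 6 CM mice, with 15334 CPM of mature neutrophil markers against 2469 to 3931. Ctrl mouse 3342 reached 16.2 CPM of the members at T5 with 13994 CPM of neutrophil markers. CM mouse 3338 at T2 was different. Its members summed to 16 CPM, led by 169 reads of Mpo, against 1.2 to 4.7 CPM in the other 6 CM mice, while its neutrophil markers, at 2447 CPM, lay within the 2027 to 3434 CPM of the other 6. The part of neutrophil number in these values was not tested.

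Between T0 and the last library of each training CM mouse, Mpo and Ms4a3 rose. The last libraries came from months 4 to 10. Mpo was at 4.31 log2 CPM in mouse 3336, 3.96 in 3338, 2.0 in 3334, 1.76 in 3370, -0.35 in 3341, -1.85 in 3357 and -2.74 in 3368, against -4.22, -4.08, -0.96, -2.24, -6.52, -2.80 and -2.45 in the T0 libraries of the same mice. These levels came from 685 reads at the highest and 3 at the lowest last library. It was higher in 6 of 7 mice, the exception being 3368, and 3357 had 6 reads in its last library against 4 at T0. The paired change was 4.34 ± 1.01 (limma adjusted p = 0.00454). Ms4a3 had 47, 33, 19, 18, 10, 8 and 0 reads in the last libraries and 0 or 1 at T0. It was higher in 6 of 7 mice and at 0 in 3368 both times. It rose by 4.31 ± 0.77 (adjusted p = 0.000982), and the summed reads of the last libraries against those at T0 (2 reads) give a ratio of 55.6 (exact 95% interval 15.1 to 464, counting error only). These were 2 of 6 members, with 10.1% of all genes called higher and 35.9% lower, and the median change was 2.40 over the members and -0.57 over all genes.

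The 3 serine proteases and Fcnb did not pass in limma in the paired training comparison, while voom called Ctsg (2.5, adjusted p = 0.0333) and Elane (2.77, 0.0344) as well. Elane had 179 reads in the last libraries against 11 at T0, a ratio of 13.4 (7.31 to 27.3), and its change was 2.76 ± 1.19 (adjusted p = 0.0786). Ctsg was higher in 6 of 7 mice and changed by an estimated 2.04 ± 1.08 (adjusted p = 0.145). Prtn3 and Fcnb were each higher in 4 of 7 mice, with estimates of 1.48 ± 0.84 (adjusted p = 0.171) and 0.78 ± 0.93 (0.524). Mouse 3334, whose T0 library was high for Prtn3 and Fcnb, weighed on these values, and without it Elane and Prtn3 were called as well. Without mouse 3368, Ctsg and Elane were. The mice with the highest Mpo also had high Kit, the receptor that marks the blasts. Kit was at 9.45 log2 CPM in 3338 and 8.51 in 3336, and at 6.61 in 3357 and 2.34 in 3368, though 3334 (8.64) and 3341 (8.07) had high Kit with fewer Mpo reads.

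**Figure D3:**
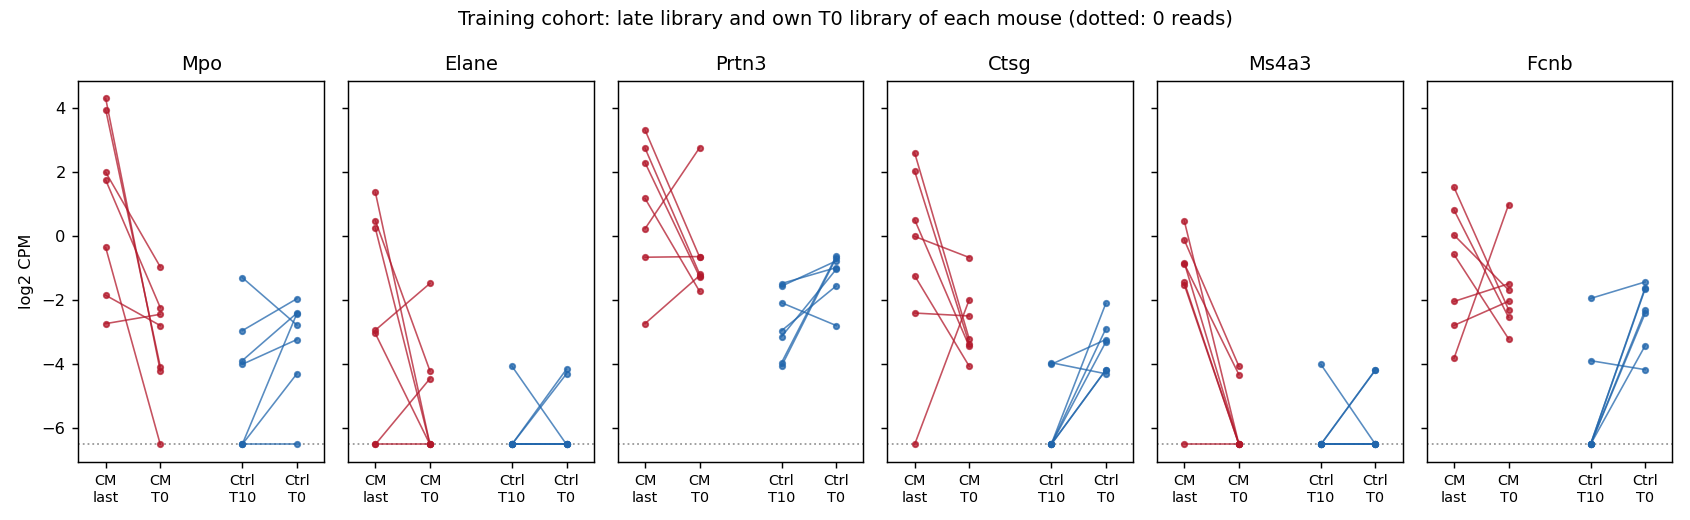
Level of the 6 genes (log2 CPM, y axis) per training mouse in 4 groups from left to right, CM last library, CM T0, Ctrl T10 and Ctrl T0. The last CM libraries of Mpo range from -2.74 to 4.31 and reach above all other groups, and Ctrl T10 lies at or below Ctrl T0 for most mice.

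In Ctrl mice most genes of the table fell over the follow-up to T10, and 3 of the 6 members were among them. Fcnb had 6 reads in the 7 T10 libraries against 34 at T0, Ctsg 2 against 15 and Prtn3 23 against 75. Each was lower at T10 in 6 of 7 mice. Fcnb fell by 3.06 ± 0.72 (limma adjusted p = 0.00368), Ctsg fell by 2.33 ± 0.59 (0.00532) and Prtn3 fell by 1.54 ± 0.57 (0.0305). These 3 of 6 members stand against 72.7% of all genes called lower, and the median change was -1.35 over the members and -1.81 over all genes. Globin transcripts took a median of 31.2% of the reads at T10 and 1.02% at T0. With median-ratio scaling, which raises the median of all genes, only Fcnb was called (-2.42, adjusted p = 0.0323, with 21.2% of all genes lower) and the estimate for Prtn3 was 0.06. The Prtn3 call was lost without Ctrl mouse 3339, 3340, 3349 or 3350.

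The change to the last library was then compared between CM and Ctrl mice, 7 against 7, at unequal times (months 4 to 10 in CM mice, month 10 in Ctrl mice). The difference of the changes was 5.28 ± 1.36 for Mpo (limma adjusted p = 0.00991), 4.37 ± 1.16 for Ms4a3 (0.0107), 3.77 ± 1.34 for Fcnb (0.0344) and 3.58 ± 1.29 for Ctsg (0.0358). These were 4 of 6 members, against 33.7% of all genes called higher, where the median difference over all genes was 0.95. Prtn3 (2.91 ± 1.14, adjusted p = 0.0509) and Elane (2.53 ± 1.51, 0.192) did not pass. Prtn3 was called with sex left out of the model (0.028), with the filter above -2 on the mean level (0.0469), and without CM mouse 3334 (0.0329), 3357 (0.0469) or 3368 (0.0146) or Ctrl mouse 3335 (0.0256). With voom Mpo, Ms4a3 and Ctsg were called and Fcnb was not (2.79, adjusted p = 0.0811). With median-ratio scaling only Mpo (5.07, adjusted p = 0.0228) and Ms4a3 (4.11, 0.0290) passed, with 13.7% of all genes higher. Without Ctrl mouse 3349 none did (Mpo 4.24, adjusted p = 0.0515, and Ms4a3 3.58, 0.0543). Fcnb and Ctsg were each also lost on leaving out CM mouse 3336, 3338 or 3370 or Ctrl mouse 3350, Fcnb on leaving out Ctrl mouse 3339 or 3342 or CM mouse 3341, and Ctsg on leaving out CM mouse 3334.

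At leukemia in the validation cohort Mpo, Ctsg and Prtn3 rose in 6 of 6 mice against their own T0 libraries, and Fcnb did not pass. Mpo was at 4.80 log2 CPM in mouse 2690, 4.17 in 2731, 2.74 in 2708, 2.14 in 2719, 1.83 in 2684 and -0.15 in 2718 at L, against -1.53, -6.30, -2.57, -2.21, -3.03 and -3.23 at T0, which were 18 to 673 reads at L and 0 to 6 at T0. Ctsg had 764, 440, 173, 185, 76 and 23 reads in the same order of mice at L, against 7, 2, 7, 4, 7 and 7 at T0. Prtn3 had 631, 252, 162, 277, 84 and 28 at L, against 10, 10, 26, 5, 6 and 10 at T0. The L and T0 libraries did not overlap for these 3 genes, as for 22.9% of all genes, though for Prtn3 the lowest L library (0.48 log2 CPM, mouse 2718) was close to the highest T0 library (0.44, mouse 2708). The paired changes were 5.73 ± 0.88 for Mpo (limma adjusted p = 0.000629), 4.44 ± 0.72 for Ctsg (0.00088) and 3.55 ± 0.58 for Prtn3 (0.000884). These were 3 of 4 members, against 31.4% of all genes called higher and 33% lower, with a median change of 4.00 over the members and -0.04 over all genes. Fcnb was at 2.01, 1.03, 0.20, 2.17, -0.90 and -6.30 log2 CPM at L, in the same order of mice, against -2.08, -1.74, -0.34, -6.30, -1.80 and -0.80 at T0. It was higher in 5 of 6 mice, and mouse 2718 had none left at L. The estimate of 1.88 ± 1.52 did not pass (adjusted p = 0.303), and without mouse 2718 it was 3.35 (0.0371). Without mouse 2731 the changes were 4.78 for Mpo (adjusted p = 0.00034), 3.91 for Ctsg (0.00241), 3.45 for Prtn3 (0.00361) and 1.70 for Fcnb (0.432), mouse 2700 having no library at L.

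**Figure D4:**
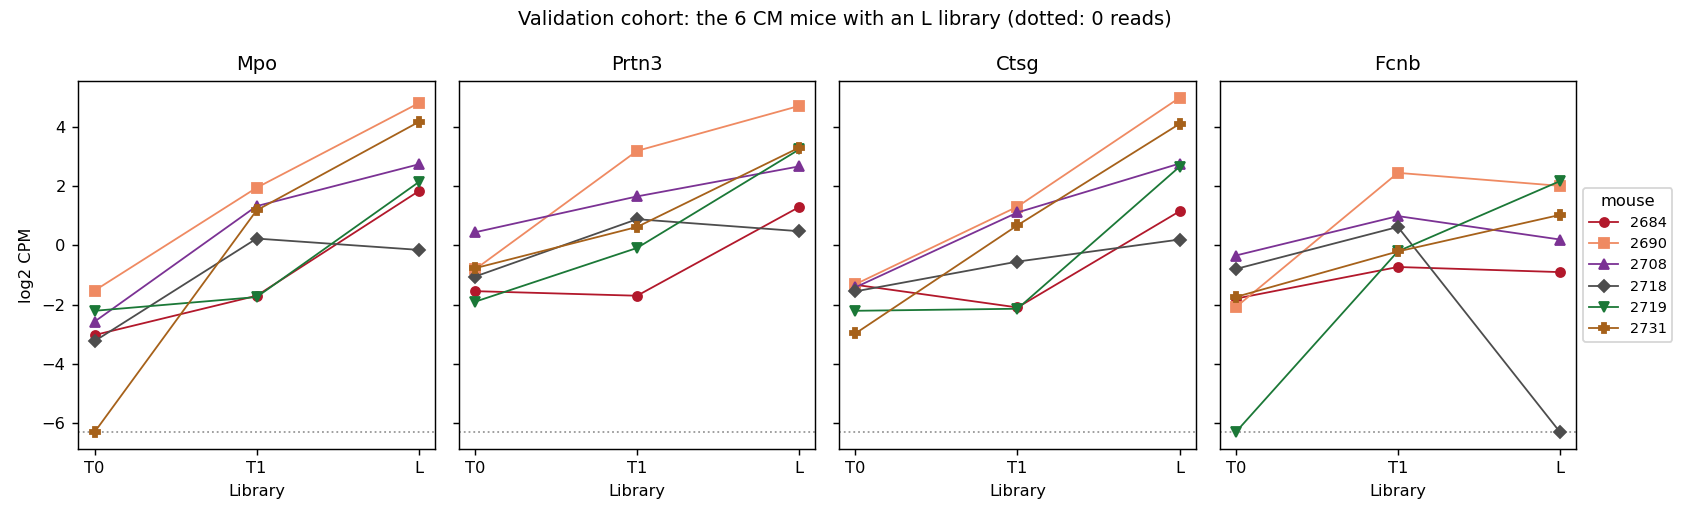
Level of Mpo, Ctsg, Prtn3 and Fcnb (log2 CPM, y axis) at T0, T1 and L in the 6 validation mice sampled at leukemia, with 1 line per mouse. Mpo, Ctsg and Prtn3 climb in every mouse between T0 and L, while Fcnb in mouse 2718 ends at 0 reads.

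Mouse 2718 had the highest Kit level at L, 11.44 log2 CPM, and the lowest level of each of the 4 members, and mouse 2684 had the lowest Kit level, 8.22. Kit averaged 10.16 ± 1.10 at L against 1.33 ± 0.33 at T0 (SD, n = 6). Per length, the order of the medians at L was Ctsg (6.52 RPKM), Prtn3 (4.55), Mpo (1.61) and Fcnb (1.18), and the ranges of neighbours overlapped. Within a mouse Ctsg lay above Prtn3 and Prtn3 above Mpo in 6 of 6 mice. At T0 in the 10 CM mice the order was Ctsg (0.263 RPKM), Prtn3 (0.260), Fcnb (0.212) and Mpo (0.0353). Without mice 2700 and 2731 both orders were the same.

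The L libraries were also compared with T1, a later draw of the same 6 mice than T0. Mpo had 67, 37, 43, 4, 4 and 19 reads at T1 in mice 2690, 2731, 2708, 2719, 2684 and 2718, and the level at L was higher in 5 of 6, the exception being 2718. Ctsg had 43, 26, 37, 3, 3 and 11 reads at T1 and was higher at L in 6 of 6. From T1 to L, Ctsg rose by 2.92 ± 0.53 (limma adjusted p = 0.00176), Mpo by 2.38 ± 0.56 (0.00636) and Prtn3 by 1.85 ± 0.50 (0.0122), 3 of 4 members, against 29.2% of all genes called higher. Without the mouse as a block the adjusted p for Prtn3 was 0.0626. Fcnb did not pass and was higher at L in 2 of 6 mice (-0.79 ± 1.08, adjusted p = 0.542), and without mouse 2718 the estimate was 0.44. Without mouse 2731 the changes were 2.82 for Ctsg (adjusted p = 0.00668), 2.26 for Mpo (0.0207), 1.69 for Prtn3 (0.0371) and -1.19 for Fcnb (0.419). The Ctrl mice of the validation cohort showed no called member from T0 to T1 in limma or with voom (0 of 4, 0 at an unadjusted p under 0.05), although 25.7% of all genes were called higher. In the training Ctrl mice 0 of 6 passed with either (0 at an unadjusted p under 0.05 in limma, 1 with voom, and 0.0% of all genes).

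The members changed by unequal amounts in some of the comparisons. Ratios between genes of 1 library do not depend on scaling, and the 6 ratios among Mpo, Ctsg, Prtn3 and Fcnb were compared within mice by an exact sign-flip permutation test, two-sided, with adjustment over the 6. In the training cohort the last library had a higher ratio of Mpo to Ctsg (by 2.30 ± 1.46 log2, SD), of Mpo to Prtn3 (2.86 ± 1.99) and of Mpo to Fcnb (3.56 ± 2.93) than T0 in 7 of 7 mice. Each had an exact permutation p of 0.0156, the smallest that 7 mice allow, and an adjusted p of 0.0312. In mouse 3368 these ratios rest on few reads. It had 3 reads of Mpo, 3 of Prtn3, 5 of Fcnb and 0 of Ctsg in the last library. At T0 it had 5, 12, 10 and 7. In Ctrl mice at T10 against T0 no ratio passed, though Prtn3 over Fcnb was higher in 7 of 7 mice (1.52 ± 1.08, adjusted p = 0.0938) and Mpo over Fcnb in 6 of 7 (1.90 ± 1.94, 0.141) by the same exact permutation test. The other 3 ratios in CM mice had adjusted p-values of 0.258 to 0.406. From T0 to L in the validation cohort no ratio passed (adjusted p 0.188 to 0.312 by the exact permutation test). From T1 to L all 3 ratios over Fcnb were higher in 6 of 6 mice, by 3.71 ± 2.07 for Ctsg, 3.17 ± 1.86 for Mpo and 2.64 ± 2.04 for Prtn3. Ctsg over Prtn3 (1.07 ± 0.68) and Mpo over Prtn3 (0.53 ± 0.44) were too, each of the 5 with an exact permutation p of 0.0312, the smallest that 6 mice allow, and an adjusted p of 0.0375. Mpo over Ctsg was lower in 5 of 6 mice from T1 to L (-0.54 ± 0.52, adjusted p = 0.0938 by the exact permutation test). From T0 to L it was higher in 5 of 6 (1.29 ± 1.45, adjusted p = 0.188 by the same test), the direction seen from T0 in 7 of 7 training mice. Without mouse 2731 the 5 ratios that passed from T1 to L were higher in 5 of 5 mice, by 0.57 to 4.01, with the smallest exact permutation p that 5 mice allow, 0.0625. Adding 2 reads in place of 0.25 before taking logs left these 8 calls as they were.

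The mixture of the 4 transcripts also varied between libraries. In the training libraries with at least 100 reads over Mpo, Prtn3, Ctsg and Fcnb, Mpo made a median of 45.1% of them in the 5 last CM libraries and 24.5% in 7 earlier CM libraries, against 2.60% (range 1.95 to 7.06%) in the 3 Ctrl libraries that reached so many, 2 of them from mouse 3342 and 1 from mouse 3346. Fcnb made 8.33% and 16.3% in these CM libraries and 15.6% in the Ctrl libraries. In the validation cohort Mpo made 31.8% at L (5 libraries) and 34.9% in 11 earlier or weekly CM libraries, and Fcnb 5.43% and 8.62%. The weekly libraries among them came from mice 3130 and 3200, which had no L library. Without mice 2700 and 2731 the shares were 31.5% at L (4 libraries) and 34.9% in 9 others for Mpo, and 5.72% and 8.62% for Fcnb. No validation Ctrl library reached 100 reads of these genes. The libraries were picked by their member reads, so these shares are a description with no test.

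**Figure D5:**
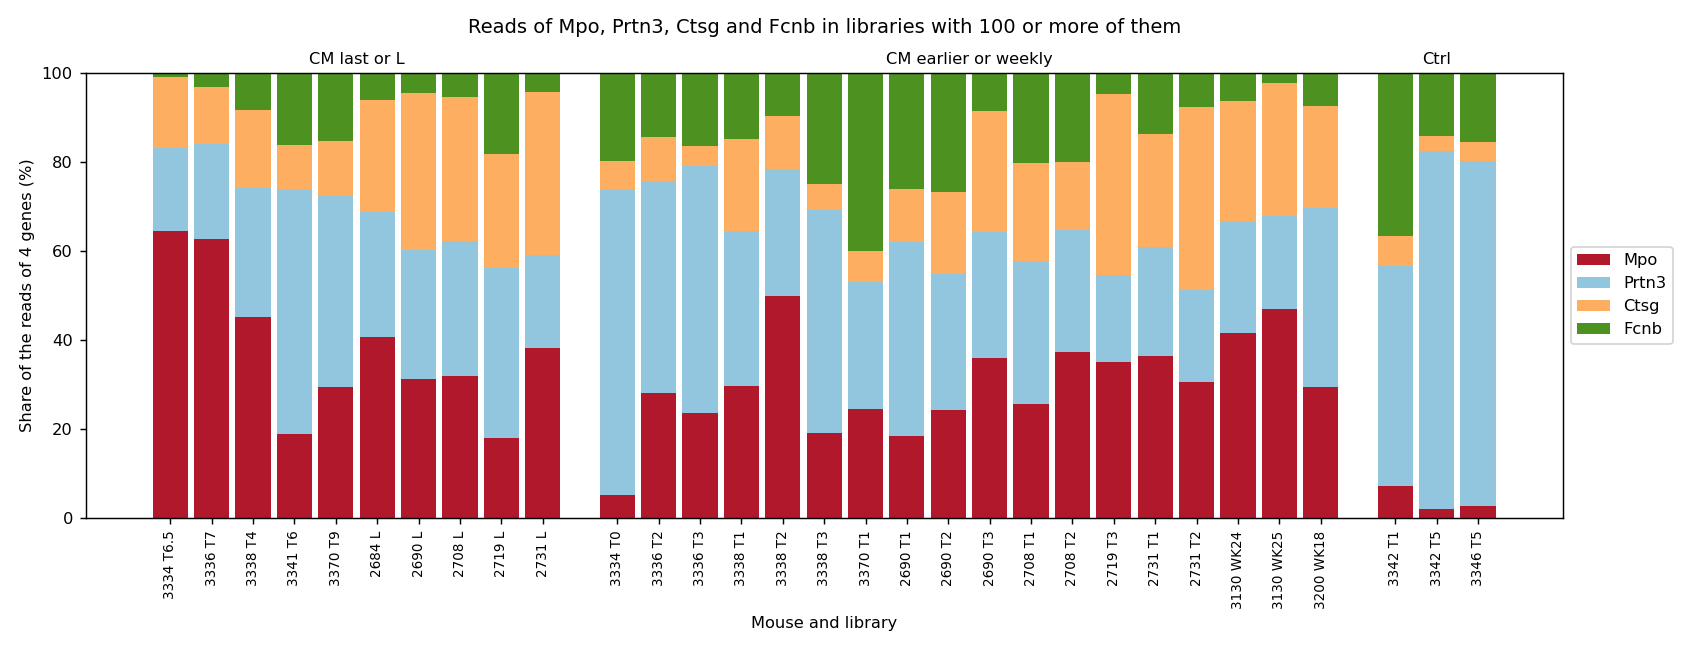
Share of the reads of Mpo, Prtn3, Ctsg and Fcnb (percent, y axis) taken by each gene in the 31 libraries with at least 100 such reads, 1 stacked bar per library, with the mouse and draw on the x axis. Mpo fills a median of 45.1% in the last training CM libraries and 31.8% at L, against 2.60% in the 3 Ctrl libraries.

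Other genes of the pathway followed from fixed lists. Of the other primary granule genes, 7 of 9 rose and 1 fell between T0 and L (median 0.91, against -0.04 over all genes), among them the cystatin Cst7 by 4.10, the protease inhibitor Serpinb1a by 3.60, the granule membrane protein Cd63 by 3.02 and the granule proteoglycan Srgn by 2.11, while the lysozyme Lyz2 fell by 2.23. In the training cohort 3 of 10 rose between T0 and the last library, Serpinb1a by 2.41, Cst7 by 2.33 and Srgn by 1.36, and 2 fell, Lyz2 by 2.18 and the cathepsin C gene Ctsc by 1.60, whose enzyme trims the granule serine proteases. The median over the list was 0.17, against -0.57 over all genes. At month 1 limma called 0 of the 10 in the training and 0 of the 9 in the validation cohort (0 and 0 at an unadjusted p under 0.05). Of the regulators of granule genes, 3 of 7 rose and 3 fell at L, where 31.4% of all genes rose and 33% fell. Myb rose by 3.85, Runx1 by 2.49 and Cbfb by 1.15, and Cebpd fell by 2.89, Cebpa by 1.65 and Gfi1 by 1.5. In the last training libraries Myb rose by 2.83 and Cebpd fell by 3.21, Cebpa by 2.13 and Gfi1 by 1.88, which were 1 and 3 of 8, against 10.1% and 35.9% of all genes. Regulators also fell in Ctrl mice, 8 of 8 at T10 against T0, where 72.7% of all genes were called lower. In the difference of the changes 4 of 8 were higher in CM mice and 0 lower, against 33.7% of all genes higher.

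In the last training libraries and at L, genes of later neutrophil stages were not raised in step with the members. Of the secondary granule genes, 2 of 10 rose at L against T0 and 2 fell, and in the last training libraries 0 rose and 2 fell. Between the arms, 5 of 10 were called higher in CM mice at training month 2 (5.46% of all genes). At validation month 1 these were 3 of 10 (7.95% of all genes). At training months 1 and 3 and validation months 2 and 3, 0 of 10 were called. Of the mature neutrophil genes 0 of 10 rose and 9 fell at L (median -2.48), and 0 rose and 10 fell in the last training libraries (median -2.59). They fell in Ctrl mice too, 9 of 10 at T10 against T0 (median -3.14), where 72.7% of all genes were called lower (median over all genes -1.81). Of these 10 neutrophil genes limma called 0 for the difference of the changes between the arms (0 at an unadjusted p under 0.05, median 0.33). Their summed level was 388 to 7058 CPM at L (median 937) against 4761 to 11401 at T0 (median 5460). In the last training libraries it was 238 to 2195 CPM (median 522), against 2469 to 15334 at T0 (median 3166). Markers of basophils and mast cells also rose, with 7 of 8 called higher at L, and their summed level was 6598 to 14564 CPM at L against 157 to 360 at T0. In the training cohort 7 of 9 rose, with 73.2 to 8581 CPM in the last libraries against 51.9 to 655 at T0. Of the stem and progenitor genes, 6 of 10 rose at L and 3 fell, and of the cell cycle genes 8 of 8 rose. Among all genes, 31.4% were called higher and 33% lower at L, and 10.1% higher and 35.9% lower in the last training libraries. In Ctrl mice at T10, 72.7% were called lower. Of the lymphoid genes, 8 of 8 for T cells, 7 of 7 for B cells and 6 of 6 for NK cells fell both at L and in the last training libraries, as they did in Ctrl mice at T10, and 5 of 6 platelet genes fell at L. In none of these lists was a gene without a read in these groups, and their part in the members' levels was not tested. At month 1 in the training cohort, 4 of 9 basophil and mast cell genes, 6 of 6 erythroid and 6 of 6 platelet genes were called higher. There 6 of 6 NK cell and 0 of 7 B cell genes were called lower, and 3.68% of all genes were called higher. At month 1 in the validation cohort, 7 of 8 basophil and mast cell, 6 of 6 erythroid, 5 of 6 platelet and 3 of 10 secondary granule genes were called higher. In that comparison 6 of 6 NK cell and 5 of 7 B cell genes were called lower, and 7.95% of all genes were called higher.

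Across all libraries the members were correlated to different degrees, described here over libraries that share mice, arms and months. Spearman's rho over all training libraries ran from 0.31 for Ms4a3 and Fcnb to 0.78 for Prtn3 and Fcnb. The neighbours Elane and Prtn3 had 0.48. Over all validation libraries it ran from 0.51 for Mpo and Fcnb to 0.77 for Prtn3 and Fcnb (0.47 and 0.75 without mice 2700 and 2731). Of 10652 genes ranked by their likeness to the mean member level in the training cohort, the first 5 were Ngp, a protein of secondary granules (0.87 in training and 0.69 in validation libraries), the amino acid transporter gene Slc7a8 (0.85 and 0.69), Flot2, which codes for a membrane raft protein (0.84 and 0.78), Csf2rb2, which codes in mice for a receptor subunit of interleukin 3 (0.84 and 0.80), and Nt5dc2 (0.83 and 0.73).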

How the data were processed

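The authors deposited 1 table per cohort of reads per gene as log2 CPM, made per the submitters' processing notes with STAR on GRCm38, featureCounts of Subread, and edgeR (versions were not given in the sources used here). Libraries of the training cohort were made with RiboErase, per the labels' protocols. The deposited log2 values had a prior of 0.25 reads, and undoing it gave whole reads for 100% of values (tolerance 0.01 reads). Exon lengths for RPKM and coordinates came from annotation tables (GENCODE and RefSeq GRCm38.p6).

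Arms were compared per month, each mouse with 1 library, adjusting for sex. Training titles carry a group, G1 to G7, and the protocols speak of randomized preparation batches. Each group held libraries of both arms, but not within each month. At month 3 the CM libraries were in G3 to G5 and the Ctrl libraries in G1 to G3. At month 4 the arms shared no group (G1, G2 and G6 in CM, G3, G4, G5 and G7 in Ctrl mice). Arm and group are hard to tell apart at these months. The group entered as a covariate only in the alternative that fitted all months at once. Later libraries were compared with T0 or T1 of the same mouse, with the mouse as the block, since labels give the animal; the change was compared on differences per mouse. The consensus correlation within mice was 0.0343 in the training cohort. Fits used limma 3.58.1 (R 4.3.3) with an intensity trend on the log2 values and Benjamini-Hochberg adjustment over all genes; every adjusted p per gene is limma's. No count model was used, and voom on the recovered reads was an alternative. Ratios of reads carry exact intervals at 95%. Up to 3 called genes of each pathway list, those with the largest change, were named by rule, and others of a list after their values were seen.

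On simulated data for the training month comparison (18508 genes), 86% of genes changed by 2 log2 units and 99% of those changed by 4 were called. For the paired comparison these were 63% and 99%. The simulation changed only genes above a low limit of mean reads at T0, and it gave all genes the same spread. In the data the paired training change of Mpo had an SD of 3.41 between mice, so these shares do not tell how often a change of a member would be called. Python 3.11.15 was used for tables. The members, lists and tests were chosen with earlier results of these data known.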

Additional observations from a re-analysis of the deposited data

Results flagged for a closer look

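Of the groups of 4 to 10 libraries of 1 arm, month and member, leaving out those where every library had at most 3 reads, 17 (12.4%) had a library whose gap to its nearest neighbour was large for the range of its group by Dixon's criterion. For normal values that criterion flags about 1 of 20 groups by chance. Log2 values of few reads are not normal, and a library with 0 reads makes a gap by itself, so the share cannot be set against that rate. Values are log2 CPM with the range of the other mice in parentheses. In the training cohort the high ones were Prtn3 at 2.77 (-1.73 to -0.64) and Fcnb at 0.99 (-3.21 to -1.49) in CM mouse 3334 at T0, Fcnb at 3.51 (-2.72 to -0.32) in CM mouse 3370 at T1, Mpo at 2.91 (-1.19 to 0.35) in CM mouse 3338 at T2, Ctsg at -0.28 (-3.25 to -2.38) in Ctrl mouse 3342 at T1 and Elane at -1.94 (no reads in the others) in Ctrl mouse 3350 at T9. The low ones were Fcnb at -3.36 (-0.94 to -0.30) in CM mouse 3334 at T5 and Prtn3 at -2.80 (-1.56 to -0.63) in Ctrl mouse 3335 at T0.

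In the validation cohort the high ones were Prtn3 at 0.44 (-1.90 to -0.77) in CM mouse 2708 at T0 and Ctsg at -1.42 (-2.78 to -2.28) in Ctrl mouse 2705 at T1. No read was found for Ctsg in CM mouse 2686 at T0 (-6.30, others -2.97 to -1.31), Mpo in CM mouse 2731 at T0 (-6.30, others -3.91 to -1.40), Fcnb in CM mouse 2709 at T3 (-6.30, others -2.82 to 0.44), Fcnb in CM mouse 2718 at L (-6.30, others -0.90 to 2.17), Mpo in Ctrl mouse 2683 at T0 (-6.30, others -3.13 to -1.34) and Fcnb in Ctrl mouse 2689 at T5 (-6.30, others -2.23 to -1.56). Fcnb was also low in Ctrl mouse 2683 at T6, at -3.78 (-2.30 to -1.88).

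The change to the last library differed between CM and Ctrl mice by the test of the difference for Mpo (5.28), Ms4a3 (4.37), Fcnb (3.77) and Ctsg (3.58).

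Libraries drawn by weeks after induction came from 3 CM mice (3130, 3131 and 3200) and 2 Ctrl mice (3127 and 3202). They entered no test between arms or draws, only the shares of reads and the correlations above. Mpo reached 3.89 log2 CPM in 3130 (week 24) and 3.58 in 3200 (week 18), and -0.52 in 3131, against at most -2.12 in the weekly Ctrl libraries. Ctsg reached 3.28 in 3130, 3.21 in 3200 and -0.90 in 3131, against at most -2.16 in Ctrl libraries. Prtn3 reached 3.17 in 3130, 4.02 in 3200 and 0.51 in 3131, against at most -0.73 in Ctrl libraries. Fcnb reached 1.16 in 3130, 1.61 in 3200 and -1.50 in 3131, against at most -1.85 in Ctrl libraries. In reads, Mpo had 7, 380 and 398 in mouse 3130 at weeks 20, 24 and 25, and 8, 24 and 309 in mouse 3200 at weeks 10, 14 and 18.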

How the results depend on the processing

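Low counts set the limit here. Most values at T0 and in Ctrl mice rest on fewer than 10 reads, and the planned filter on a mean log2 CPM above 1 gave no count because the members lie below it, so a filter above -2 was added after seeing the data. The count of called members moved as follows, and the cause was not tested. At training month 1 (1 called) it was 0 above -2 (4 members fitted), with voom, with a prior of 2 reads, with the replicate block of own T0 libraries and with all months in 1 fit with the replicate block and the library group. At month 2 (0 called) it was 1 without the sex covariate. At month 3 (1 called) it was 2 with median-ratio scaling, 2 without the sex covariate, and 0 with either block. At validation month 1 (2 called) it was 0 with the replicate block. For the last CM libraries (2 called) it was 1 above -2 and 4 with voom. For Ctrl T10 (3 called) and for the change between arms (4 called) median-ratio and upper-quartile scaling gave 1 and 2 each, voom gave 3 for the change, and the filter above -2, which left 1 member, gave 1 and 1. The replicate block changed no other call except that of Prtn3 from T1 to L, given above.

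Leaving out 1 mouse in turn gave 0 to 2 called members at training month 1, 0 to 1 at month 2, 0 to 2 at month 3, 2 to 3 at validation month 1, 2 to 4 for the last CM libraries, 2 to 4 for Ctrl T10, 0 to 5 for the change, 3 to 4 for L against T0, and 3 throughout for L against T1. Of the estimates that changed sign, that of Prtn3 at Ctrl T10 had been called. For Ctrl T10 they were Elane with median-ratio scaling (0.0179), with voom (0.0539) and without mouse 3346 or 3350 (-0.761 to 0.0402 over all mice left out), Ms4a3 with median-ratio scaling (0.0701), upper-quartile scaling (0.0198), voom (0.0533) and without mouse 3335 or 3349 (-0.778 to 0.0298 over all), and Prtn3 with median-ratio scaling (0.0644). Fcnb from T1 to L was 0.0306 with voom, and -1.42 to 0.44 with 1 mouse left out, the highest without mouse 2718. With 1 mouse left out, 397 results kept direction and side of the threshold, 30 were weaker, 16 stronger and 5 changed sign. With the other alternatives these numbers were 244, 18, 6 and 7.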
